A study of Mus musculus with 8 samples.

Results

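Goblet cell mucus genes were followed in intestinal crypt organoids by the levels of 8 listed genes, taken from a list of names: Muc2, Tff3, Fcgbp, Zg16, Agr2, Spdef, Spink4 and Creb3l1. They were 8 of 14169 mouse genes that had a transcription start or end in the deposited tables. RNA sequencing covered 8 organoid samples, 4 from wild type littermates (WT) and 4 from transgenic mice that overexpress MG53 in the whole animal (MG53-TG). The labels give these genotypes, while the text of the study also describes crypt organoids from MG53;Lgr5 and Lgr5 mice, in which an Lgr5 reporter is present, and which of these the samples were cannot be settled here. MG53, encoded by Trim72, is a TRIM family protein known for its part in cell membrane repair. Crypts were released from the intestine with EDTA, embedded in Matrigel, a basement membrane gel, and grown in IntestiCult medium with passages every few days. Neither label names a treatment, and their age and passage number, like the promoter of the transgene, are not given in the sources used here. The labels do not say whether samples of a group came from separate mice, so p-values measure only the spread between these samples, which may be technical.

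Goblet cells are the mucus-secreting cells of the intestinal epithelium. They assemble the gel-forming mucin MUC2 in the endoplasmic reticulum and Golgi, store it in granules and release it together with a set of small partner proteins, and the resulting gel keeps luminal bacteria away from the epithelium. Transcription factors of the secretory lineage, SPDEF among them, switch this programme on as progenitors leave the crypt base. In organoids the epithelium grows alone, and its goblet cells share the culture with stem cells, Paneth cells, enterocytes and enteroendocrine cells. In such bulk RNA, fewer cells of a type and less RNA per cell cannot be told apart.

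The values are FPKM, a level corrected for transcript length (fragments per kilobase) and for the mapped fragments of the sample, which the authors estimated for each transcription start and end. The value of a gene was the sum over its starts, or over its ends where that sum had the higher mean. No counts of reads entered the comparison, and sequencing depth is therefore unknown. As a check of the genotype labels, Trim72 was looked up first. None of the WT samples had an entry for it, and the MG53-TG samples 1 to 4 reached 16.4, 27.4, 31.9 and 36.5 FPKM. Epcam, an epithelial surface protein, was at 398 to 490.2 FPKM in WT and 409.6 to 507 in MG53-TG. Of the list of 10 epithelial defining markers it belongs to, all had an entry, 7 were lower in MG53-TG and 1, Vil1, was higher (log2 fold change 1.05). Among the lower ones were Krt18 with -1.11, Elf3 with -1.05, Cdh1 with -0.80 and Cdx2 with -0.58, and with median-of-ratios scaling 4 were lower. Among the genes that mark immune cells and mesenchyme, Ptprc had no entry in WT and reached 5.08e-04 FPKM in MG53-TG, and Des stayed at or below 0.0881 FPKM wherever it was listed. Other genes of these lists were more abundant. Vim was at 1.80 to 3.24 FPKM in WT and 0.945 to 2.45 in MG53-TG, and Cd68 at 3.75 to 9.08 and 0.469 to 1.28. The collagen gene Col3a1 had no entry in WT, which was taken as 0, nor in MG53-TG sample 1, which was left out, and it was at 0.904 to 1.62 FPKM in the other 3 MG53-TG samples. Between the genotypes, 4890 of 11018 genes tested (44.4%) passed an adjusted p of 0.05 (limma, Benjamini-Hochberg over all genes), 28.8% lower and 15.6% higher in MG53-TG, so a change by itself was common in this comparison. With median-of-ratios scaling, which shifts the overall median on the log2 scale by 0.16, the higher genes made up 50.2% of the calls instead of 35.2%. MG53-TG samples 3 and 4 stood apart from samples 1 and 2 in several cell type markers. Summed stem cell markers, for example, were at 128 and 96.1 FPKM in samples 3 and 4 and at 356 and 374 FPKM in samples 1 and 2. Each result on a member was therefore repeated without each sample in turn.

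Promoter sequences are shown for the members that fell and for which RefSeq supplied a window (GRCm38.p6). Whether these promoters had a part in the fall was not tested. Of the 8 members, 4 matched an entry of the promoter table, each 300 bases long, from 250 before the start to 50 from it. Tff3, Zg16, Spink4 and Creb3l1 had no entry. The sequences are written 5′ to 3′ on the strand of the gene, and capitals mark matches, on either strand, to the TATA box TATAAA, the CDX motif TTTATG, the GATA motif AGATAA and the FOXA motif TGTTTNC.
The Muc2 window is chr7:141690090-141690389 on the plus strand.
Muc2: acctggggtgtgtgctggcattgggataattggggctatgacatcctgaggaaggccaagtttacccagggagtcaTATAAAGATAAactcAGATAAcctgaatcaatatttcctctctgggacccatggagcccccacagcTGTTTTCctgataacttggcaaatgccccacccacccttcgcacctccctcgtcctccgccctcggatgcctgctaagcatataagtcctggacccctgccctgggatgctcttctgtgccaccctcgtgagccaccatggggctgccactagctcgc
The Fcgbp window is chr7:28070986-28071285 on the plus strand.
Fcgbp: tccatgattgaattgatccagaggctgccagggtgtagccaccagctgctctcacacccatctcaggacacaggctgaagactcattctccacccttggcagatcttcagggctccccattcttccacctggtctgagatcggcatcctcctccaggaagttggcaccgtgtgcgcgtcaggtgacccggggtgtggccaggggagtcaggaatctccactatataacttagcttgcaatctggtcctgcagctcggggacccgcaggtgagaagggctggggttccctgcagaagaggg
The Agr2 window is chr12:35992675-35992974 on the plus strand.
Agr2: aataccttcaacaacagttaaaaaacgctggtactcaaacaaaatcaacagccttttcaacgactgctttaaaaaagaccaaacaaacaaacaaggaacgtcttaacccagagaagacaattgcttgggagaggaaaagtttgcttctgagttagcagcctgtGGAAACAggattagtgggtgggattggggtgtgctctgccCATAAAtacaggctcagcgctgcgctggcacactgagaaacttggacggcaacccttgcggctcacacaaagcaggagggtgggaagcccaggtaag
The Spdef window is chr17:27728902-27729201 on the minus strand.
Spdef: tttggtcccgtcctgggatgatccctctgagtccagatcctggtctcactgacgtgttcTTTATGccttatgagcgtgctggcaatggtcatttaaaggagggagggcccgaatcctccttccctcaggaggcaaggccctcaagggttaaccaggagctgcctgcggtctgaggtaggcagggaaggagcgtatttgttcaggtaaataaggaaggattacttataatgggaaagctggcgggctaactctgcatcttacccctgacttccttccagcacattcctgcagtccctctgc
The Muc2 window held AGATAA at 2 places, with first bases 169 and 159 before the start, and TGTTTNC 108 before it, while its TATAAA at 174 before the start overlapped the first AGATAA. In the Agr2 window the reverse complements of TTTATG and TGTTTNC began 47 and 87 bases before the start. The Spdef window had TTTATG 191 bases before the start, with the CREB3 and XBP1 core ACGTG nearby, 199 before it. Over all 32851 windows of this length, 11.2% held AGATAA, 11.9% TTTATG, 20.5% TGTTTNC, 13.6% TATAAA and 19.6% ACGTG on either strand. The Fcgbp window had none of these 5 motifs. The E-box, CANNTG, stood at 4 places in the Fcgbp window, 2 in the Muc2 window, 1 in the Agr2 window and 0 in the Spdef window, and 72.3% of all windows held it at 1 place or more. These matches describe the letters only.

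The members Muc2, Tff3, Fcgbp, Agr2, Spdef and Spink4 fell in MG53-TG organoids, by 1.86-fold to 6.47-fold in mean FPKM. For these 6 of 8 members every MG53-TG sample lay below every WT sample, a pattern seen for 28.8% of the genes tested. The other 2 members, Zg16 and Creb3l1, did not pass the test in either direction. The median log2 fold change of the 8 members was -1.21, against -0.17 over all genes tested. Of all genes, 11.1% had a log2 fold change as low as that of Spdef, the called member with the smallest fall on the log2(FPKM + 1) scale. In mean FPKM it was Tff3 that fell least, 1.86-fold, and Spdef fell 3.27-fold.

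**Figure D1:**
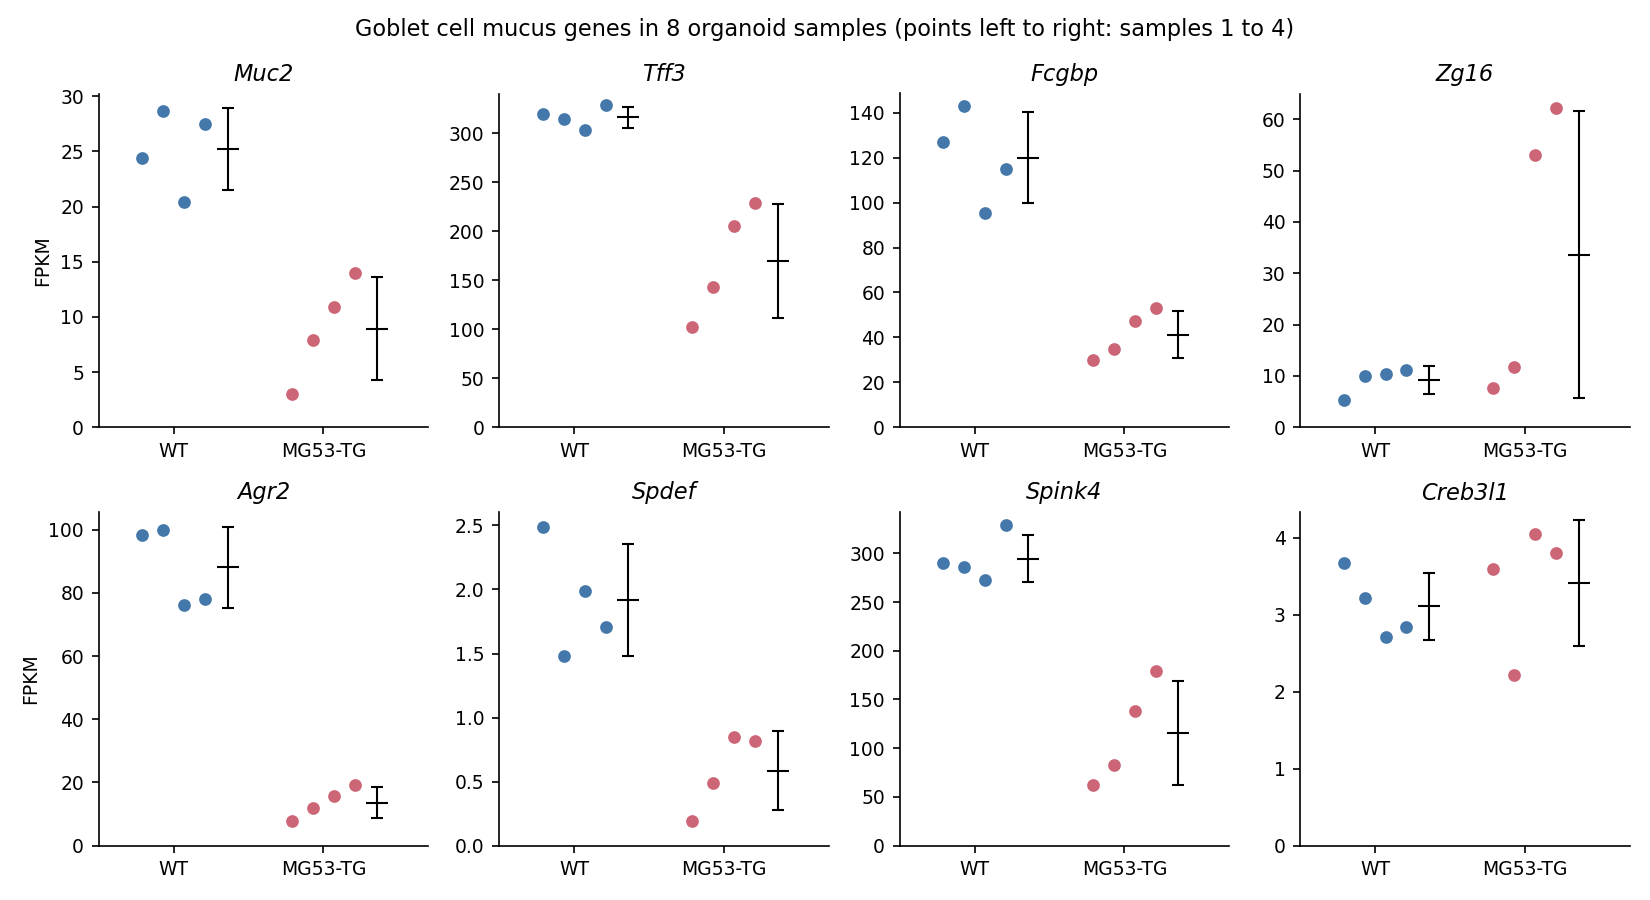
FPKM (linear axis from 0) of each of the 8 members in the 4 WT (blue) and 4 MG53-TG (red) organoid samples. Points are samples 1 to 4 from left to right, and the bar beside them is the mean with its SD (n = 4). In 6 panels all red points lie below all blue points, Zg16 is high in 2 of the 4 MG53-TG samples, and the groups overlap for Creb3l1.

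**Figure D2:**
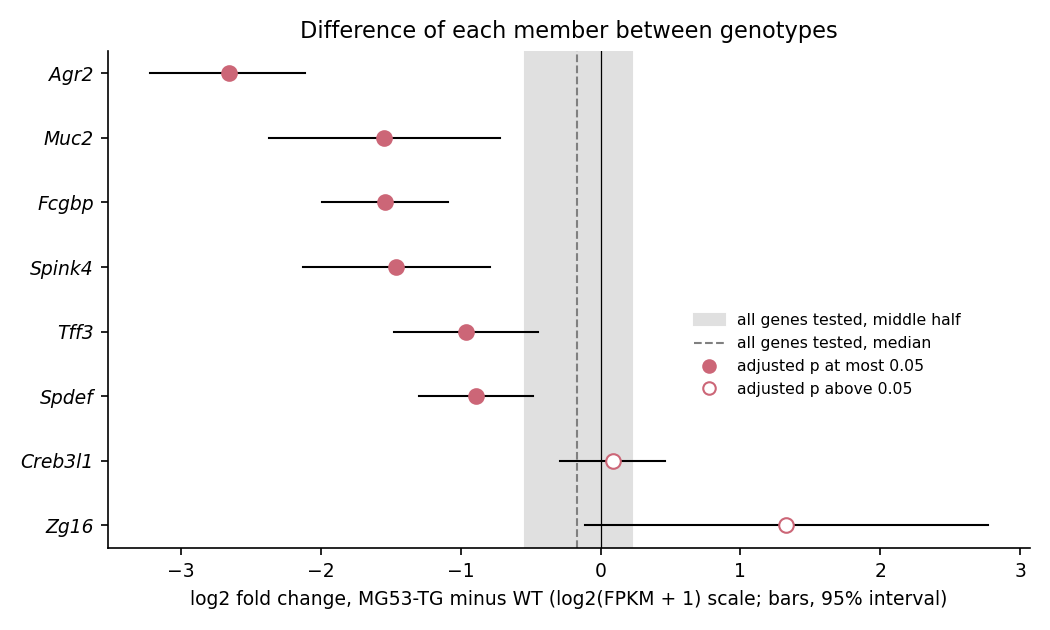
Log2 fold change of each member, MG53-TG minus WT on the log2(FPKM + 1) scale, with its 95% interval from limma. Filled points passed an adjusted p of 0.05, the dashed line is the median of all 11018 genes (-0.17) and the grey band runs from their 25th percentile (-0.54) to their 75th (0.22). The points of the 6 called members lie left of the band, with Agr2 farthest.

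Agr2 fell most among the members. It encodes a protein disulfide isomerase of the endoplasmic reticulum that is needed for the production of MUC2 (ENSMUSG00000020581, GRCm38 chromosome 12, 35992907 to 36004087, plus strand). The WT samples were at 98.3, 100.0, 76.0 and 78.0 FPKM and the MG53-TG samples at 7.66, 12.0, 15.6 and 19.2 FPKM. The highest MG53-TG sample thus had 21.8% of the WT mean. The log2 fold change was -2.66 (SE 0.24, 95% interval -3.22 to -2.11, limma adjusted p = 6.79e-05), from 88.1 ± 12.8 to 13.6 ± 4.94 FPKM (SD, n = 4).

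Muc2, the gel-forming mucin itself, is annotated on chromosome 7 from 141690340 to 141754693 (ENSMUSG00000025515, plus strand). It was at 24.4, 28.7, 20.4 and 27.5 FPKM in WT and at 3.00, 7.86, 10.9 and 14.0 FPKM in MG53-TG. All MG53-TG samples were low, and sample 1 was the lowest, at 11.9% of the WT mean. The mean fell 2.83-fold, with a log2 fold change of -1.55 (SE 0.36, 95% interval -2.37 to -0.72, adjusted p = 0.00892). In the deposited tables Muc2 is split into 4 segments that do not overlap, so the sum of their starts counts a full-length transcript more than once. The last segment, which starts at 141744612 and ends at the annotated gene end, was the most abundant. Its start was at 15.8, 16.0, 13.4 and 16.2 FPKM in WT and at 2.61, 5.11, 7.23 and 8.04 FPKM in MG53-TG. The starts of the other 3 segments lay between 1.98 and 6.07 FPKM in WT and between 0.392 and 2.73 FPKM where MG53-TG samples listed them. In MG53-TG sample 1 the starts of the first and second segment were not listed, and neither was that of the second in sample 2. With the last segment alone, which was tried once the segments had been seen, the fall was similar, at -1.36 on the log2 scale (adjusted p = 0.00379).

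Fcgbp encodes a large mucus protein with von Willebrand D domains that is secreted with MUC2. Its annotated gene spans chromosome 7 from 28071236 to 28120862 on the plus strand (ENSMUSG00000047730). It was at 127, 143, 95.3 and 115 FPKM in WT and at 30.1, 34.7, 47.4 and 52.9 FPKM in MG53-TG. The groups were far apart, and the means were 120 ± 20.3 and 41.3 ± 10.7 FPKM (SD, n = 4), a 2.91-fold fall. Its log2 fold change was -1.54 (SE 0.20, 95% interval -1.99 to -1.09, adjusted p = 4.30e-04). The value is the sum of 4 starts, listed under the name of the neighbouring gene 9530053A07Rik, which joins Fcgbp in 1 locus. They were given to Fcgbp because their exon boundaries are those of the Fcgbp gene. The start at the annotated gene start carried most of the value, with 26.7 of 30.1 FPKM in MG53-TG sample 1. How far reads of the neighbour entered the value was not tested, and no end event was assigned to Fcgbp.

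Tff3, a trefoil peptide that goblet cells secrete together with the mucin, was among the most abundant members (ENSMUSG00000024029, chromosome 17, 31125306 to 31129646, minus strand). The WT samples were close together at 319, 314, 303 and 329 FPKM. In MG53-TG the values were 102, 143, 205 and 229 FPKM, all below WT but spread over a 2.23-fold range. The mean was 1.86-fold lower, with a log2 fold change of -0.96 (SE 0.23, 95% interval -1.48 to -0.45, adjusted p = 0.00897). With median-of-ratios scaling it was -0.77 (adjusted p = 0.0475).

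Spink4, a Kazal-type protease inhibitor made by goblet cells (ENSMUSG00000028415, chromosome 4, 40920052 to 40931395, plus strand), had levels like those of Tff3 in WT. It was at 290, 286, 273 and 329 FPKM in WT and at 62.2, 82.3, 138 and 180 FPKM in MG53-TG. The mean fell 2.55-fold, from 294 ± 24.2 to 116 ± 53.5 FPKM (SD, n = 4). The log2 fold change was -1.46 (SE 0.29, 95% interval -2.13 to -0.79, adjusted p = 0.00455).

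Zg16 encodes a small lectin-like protein of the mucus that binds the cell wall of Gram-positive bacteria (ENSMUSG00000049350, chromosome 7, 127050156 to 127087328, minus strand). In contrast to the genes above, it was at 5.25, 9.88, 10.4 and 11.2 FPKM in WT and at 7.57, 11.8, 53.0 and 62.2 FPKM in MG53-TG. MG53-TG samples 1 and 2 lay within or near the WT range, and samples 3 and 4 were at 578% and 678% of the WT mean. Its log2 fold change was 1.33 with a wide error (SE 0.63, 95% interval -0.11 to 2.77, adjusted p = 0.119). Without MG53-TG sample 1 it was 1.84 (adjusted p = 0.0283), and over all samples left out in turn the adjusted p ran from 0.0283 to 0.276. These values come from the end of the gene. Its start was at 0.445 to 0.643 FPKM in WT and at 0.451, 0.548, 6.26 and 5.19 FPKM in MG53-TG, with the same 2 samples high.

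Spdef, an ETS transcription factor that drives goblet cell maturation, was scarce in all samples (ENSMUSG00000024215, chromosome 17, 27714352 to 27728955, minus strand). It was at 2.49, 1.48, 1.99 and 1.71 FPKM in WT and at 0.189, 0.489, 0.845 and 0.821 FPKM in MG53-TG. The groups did not overlap, and the log2 fold change was -0.89 (SE 0.18, 95% interval -1.30 to -0.48, adjusted p = 0.00466). At such low values the pseudocount of 1 matters, and with 0.1 the log2 fold change was -1.68 (adjusted p = 0.0103). The start at the annotated gene start was not listed in MG53-TG sample 1, whose value came from a retained-intron transcript. Its end was at 2.49, 1.48, 1.60 and 1.16 FPKM in WT and at 0.654, 0.489, 0.845 and 0.612 FPKM in MG53-TG, and over the ends the log2 fold change was -0.68 (adjusted p = 0.0123).

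Creb3l1, a membrane-bound transcription factor of the CREB3 family linked to the secretory pathway, did not follow the other members (ENSMUSG00000027230, chromosome 2, 91982328 to 92024502, minus strand). It was at 3.68, 3.22, 2.71 and 2.84 FPKM in WT and at 3.60, 2.22, 4.05 and 3.80 FPKM in MG53-TG, read from its end. The groups overlapped, and the log2 fold change was 0.09 (SE 0.17, 95% interval -0.29 to 0.46, adjusted p = 0.692). The interval leaves room for a change of either sign. Read from its starts instead, the log2 fold change was -0.56 (adjusted p = 0.152).

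The starts of Creb3l1 differed between the genotypes in which one was listed. The annotated start, an exon of 499 bases at chromosome 2 from 92024004 to 92024502, was listed in all 4 WT samples, at 2.71 to 3.68 FPKM, and in 0 of 4 MG53-TG samples. In MG53-TG a start of 67 bases at 91986372 to 91986438, between annotated exons, was listed at 1.96, 0.498, 3.41 and 2.03 FPKM, and it was listed in 0 of 4 WT samples. Over all 31903 start events, 296 (0.928%) were listed in all WT and no MG53-TG samples, and 133 (0.417%) the reverse. No test was run on this difference. An entry that is absent from a table of estimates is not a measured 0.

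**Figure D3:**
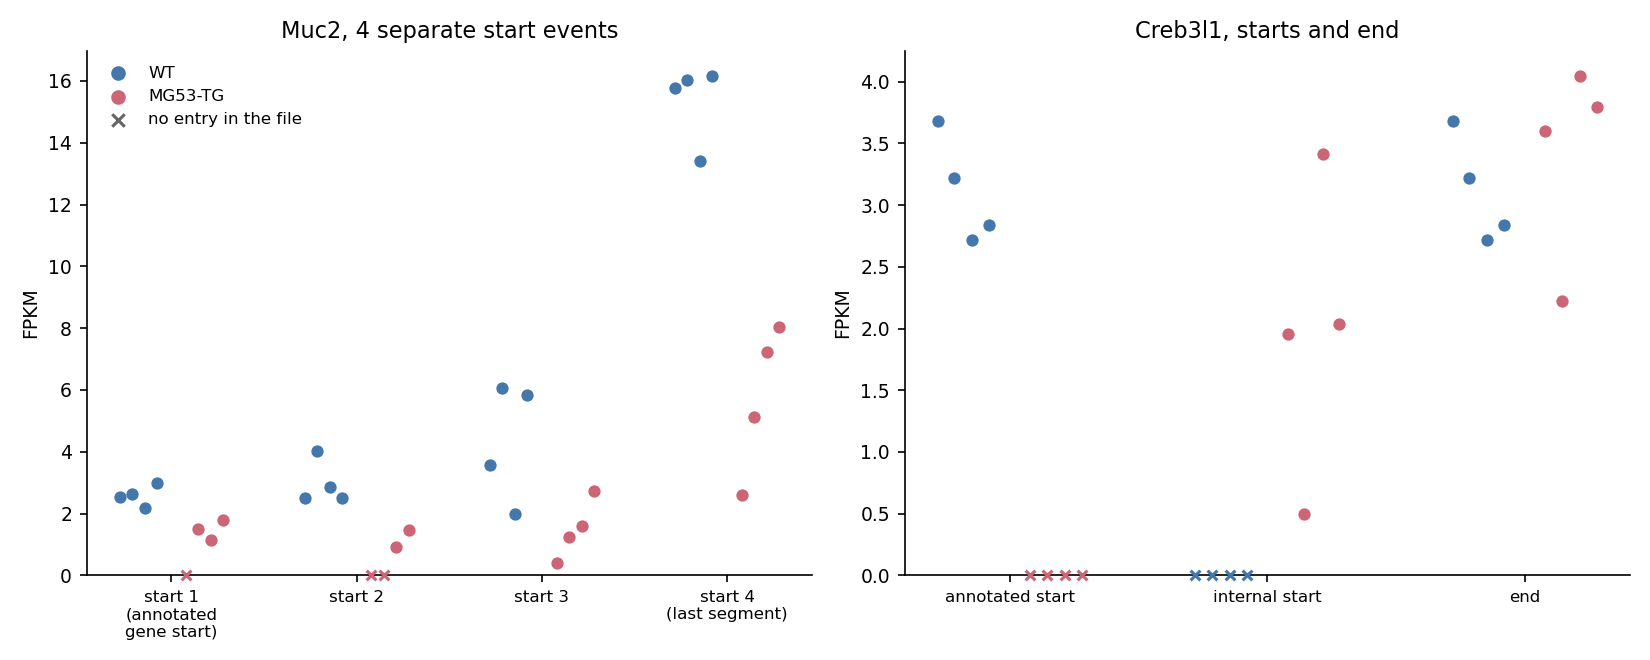
FPKM of single events, linear axis from 0, with WT in blue and MG53-TG in red, samples 1 to 4 from left to right and crosses on the axis for samples without an entry. Left, the 4 Muc2 starts, of which the last is the highest in WT (13.4 to 16.2 FPKM) and lower in all MG53-TG samples (2.61 to 8.04 FPKM). Right, the annotated start of Creb3l1 is listed in WT only, the internal start in MG53-TG only, and the end in all 8 samples.

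Each member was also set against Muc2 within the same sample, as log2 of the ratio of (FPKM + 1), to see whether the members fell in proportion. For each of the 7 ratios all 70 relabellings of the samples were enumerated (exact permutation test, two-sided), which cannot give a p below 0.0286, and the p-values were not adjusted for one another. The log2 ratio of Agr2 was 1.97, 1.76, 1.85 and 1.47 in WT and 1.11, 0.55, 0.48 and 0.43 in MG53-TG, a difference of -1.12 (exact p = 0.0286), and without WT sample 1 or 3 the exact p was 0.0571. Tff3 differed the other way, by 0.59 (exact p = 0.0286), from 3.61 ± 0.18 to 4.19 ± 0.34 (SD, n = 4), and with the last Muc2 segment alone the difference was 0.39 (exact p = 0.0286). Without WT sample 2, WT sample 4 or MG53-TG sample 1 the exact p was 0.0571, with a difference of 0.42 in the last case. For Spink4 and Fcgbp the mean ratio hardly differed, by 0.09 (exact p = 0.629) and 0.01 (exact p = 0.971). Their MG53-TG samples were more spread, with an SD of 0.50 for Fcgbp against 0.14 in WT, and sample 1 was the highest of its group for both. Spdef had a difference of 0.66 (exact p = 0.114), which went to -6.49e-04 with a pseudocount of 0.1. For Zg16 and Creb3l1 the ratio was higher in all MG53-TG samples, by 2.87 and 1.63 (both exact p = 0.0286). From starts alone the Creb3l1 difference was 0.99 (exact p = 0.0857).

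The MG53-TG samples differed more among themselves than the WT samples did. The coefficient of variation was 3.41% in WT and 34.0% in MG53-TG for Tff3, 8.21% and 46.3% for Spink4, and 14.7% and 52.5% for Muc2. It was higher in MG53-TG than in WT for all 8 members and for 68.9% of 10517 genes tested that had all 8 values. Sample 1 was the lowest and sample 4 the highest of the MG53-TG group for 6 of the 8 members, namely Muc2, Tff3, Fcgbp, Zg16, Agr2 and Spink4, and samples 2 and 3 lay in that order between them. Of 10735 genes tested with values in all 4 MG53-TG samples, 8.50% had sample 1 lowest and sample 4 highest, and 5.80% had all 4 in this order. Trim72 itself had sample 1 lowest and sample 4 highest, with the values given above. The sample numbers are names and carry no order of their own, and whether the transgene level had a part in this spread was not tested.

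**Figure D4:**
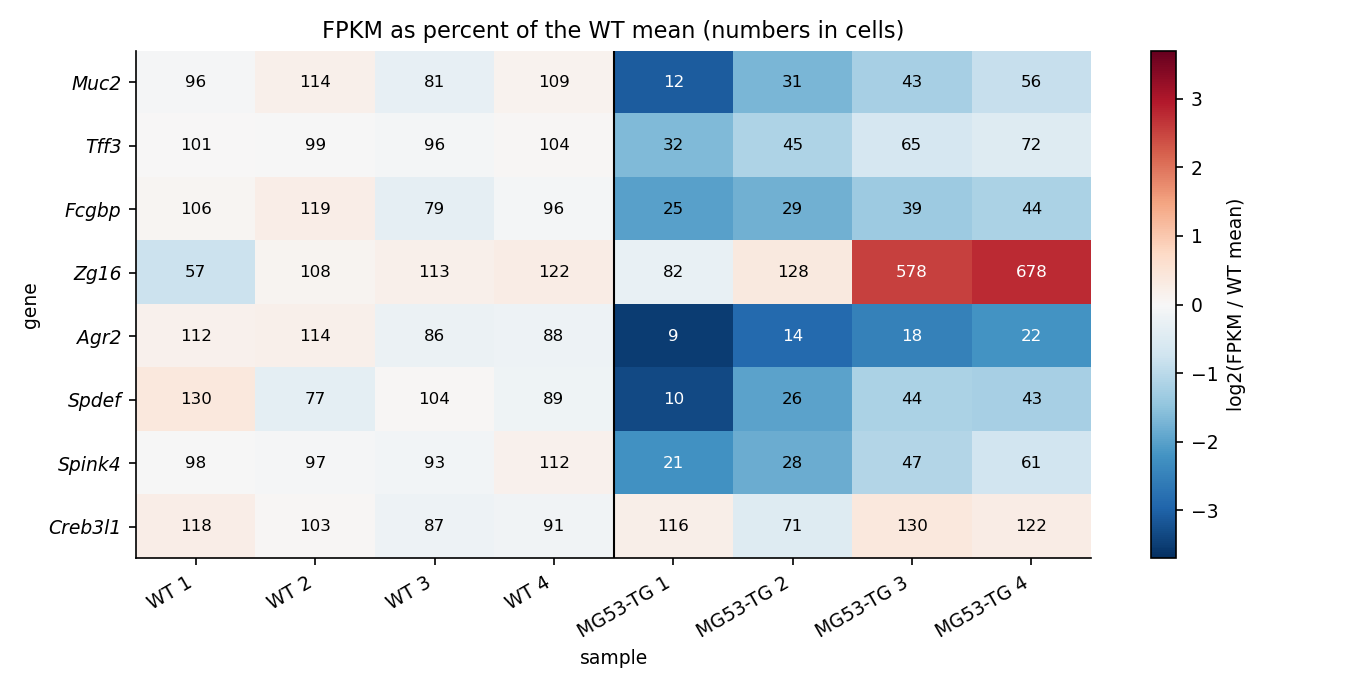
FPKM of each member (rows) in each sample (columns), as percent of the WT mean in the cells and as colour on a log2 scale. Muc2 runs from 11.9% in MG53-TG sample 1 to 55.5% in sample 4, and Agr2 from 8.69% to 21.8%, while Zg16 reaches 678% in sample 4.

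The likeness of other genes to Muc2 was described by the Pearson correlation of the deviations from the group means of log2(FPKM + 1) over the 8 samples, among the 9192 genes that averaged 2 FPKM or more and had values in all samples. These points share their libraries, and the deviations of Muc2 are dominated by MG53-TG sample 1. The 5 closest genes outside the members were Cdhr5 (r = 0.995), Pcbd2 (0.990), Rpl38 (0.989), Dnase1 (0.980) and Gpatch8 (0.971). Their levels between the genotypes went different ways. Cdhr5, a protocadherin of the brush border, was at 30.8 ± 2.38 FPKM in WT and 93.0 ± 19.8 FPKM in MG53-TG (SD, n = 4), with a log2 fold change of 1.54 (adjusted p = 1.25e-04). Dnase1, a secreted nuclease, went from 0.292 ± 0.0678 to 56.5 ± 10.7 FPKM, and Rpl38, a ribosomal protein gene, had a log2 fold change of -0.10 (adjusted p = 0.412). Among the members the deviations were closest to those of Muc2 for Tff3 (r = 0.956, rank 17), Agr2 (0.938, rank 37) and Spink4 (0.919, rank 61). Fcgbp followed with 0.864 and Zg16 with 0.842, and Creb3l1 had 0.159. Spdef had too low a mean to be ranked.

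Regulators of the goblet lineage were taken from a list of 12 genes, of which 10 had an entry and 9 were tested. Of these 5 fell, 1 rose and 3 did not pass the test, beside 28.8% lower and 15.6% higher among all genes tested, and their median log2 fold change was -0.76 (-0.17 over all genes). Foxa2, a forkhead factor, fell from 2.22 ± 0.63 to 0.292 ± 0.394 FPKM (SD, n = 4, with 2 MG53-TG samples without an entry taken as 0), a log2 fold change of -1.34 (adjusted p = 0.00226). Its relative Foxa1 had a log2 fold change of -1.06 (adjusted p = 0.00715), fitted without WT sample 1 and MG53-TG samples 3 and 4, which had no entry for it. With these taken as 0 it did not pass (-1.31, adjusted p = 0.222). Sox9, a factor of crypt progenitors and Paneth cells, was at 14.7 to 16.6 FPKM in WT and at 10.4, 10.4, 3.59 and 2.70 FPKM in MG53-TG. Its log2 fold change was -1.29 (adjusted p = 0.0201), and without MG53-TG sample 3 it was -1.10 (adjusted p = 0.0570). Klf4, a factor of goblet cell differentiation, and the Notch ligand Dll4 were the other 2 that fell, with -1.02 and -0.76, and the 1 that rose was the Notch ligand Dll1, with 0.93 (adjusted p = 0.00134). These 3 are named here after their values were seen. The most abundant regulators did not pass the test. Xbp1, which serves the unfolded protein response of secretory cells, was at 62.6 to 90.1 FPKM in WT and 62.6 to 98.6 in MG53-TG, and Hes1, the Notch effector, had a log2 fold change of -0.18 (adjusted p = 0.434). Atoh1 and Foxa3 had no entry in the tables.

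Other goblet cell products and genes of the secretory machinery made up a list of 31, of which 23 had an entry and 17 were tested. Of these 12 fell, 1 rose and 4 did not pass the test, against the same shares of 28.8% and 15.6% over all genes, and the median log2 fold change was -0.94. The weakest of the 12 calls was that of Ern2, whose groups overlapped (limma adjusted p = 0.0429). That call was lost with median-of-ratios scaling (limma adjusted p = 0.0632), and Ern2 is named here after its values were seen. Klk1, a tissue kallikrein, fell most. Its WT values were 3.97, 2.68, 3.51 and 4.71 FPKM. The MG53-TG values were 0.162, 0.223 and 0.369 FPKM in samples 1, 2 and 4, while sample 3 had no entry and was taken as 0. This gave a log2 fold change of -1.98 (SE 0.17, adjusted p = 4.48e-05). Atp2a3, a calcium pump of the endoplasmic reticulum, fell 5.25-fold, from a mean of 8.68 FPKM to 1.65 (adjusted p = 4.65e-05). Galnt12, a transferase that starts O-glycan chains on mucins, fell 4.48-fold, from 7.74 to 1.73 FPKM (adjusted p = 7.85e-04). Vamp8, a membrane fusion protein of secretory granules, was the 1 that rose, from 57.7 to 62.7 FPKM in WT to 95.6 to 106 FPKM in MG53-TG (log2 fold change 0.73, adjusted p = 1.25e-04). Guca2a, the peptide guanylin, was at 68.8 to 83.2 FPKM in WT and at 43.2, 43.8, 138 and 170.4 FPKM in MG53-TG. As with Zg16, MG53-TG samples 3 and 4 were the high ones, and its log2 fold change of 0.16 did not pass the test (adjusted p = 0.791). Ang4, Retnlb, Rep15, Tgm3, Best2, Galnt4, B3gnt6 and St6galnac1 had no entry.

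Relatives of the members, that is other mucins, trefoil peptides and the AGR2 paralogue, numbered 13, with 7 tested. Of these 2 were lower and 1 higher, close to the shares over all genes (28.8% and 15.6%). The membrane mucins Muc3 and Muc3a fell, with log2 fold changes of -1.46 (adjusted p = 0.00120) and -1.24 (adjusted p = 8.01e-04), and since these copies are alike in sequence their reads may be split between them. Tff1 was the 1 that rose, from a mean of 0.556 to 2.99 FPKM with overlapping groups (adjusted p = 0.0463), and its call was lost in 7 of the 8 fits that left out a sample, all but the fit without MG53-TG sample 2 (adjusted p from 0.0114 to 0.116). Muc13, a membrane mucin and the most abundant relative, was at 72.6 to 101 FPKM in WT and at 48.2, 112, 134 and 248 FPKM in MG53-TG (adjusted p = 0.432). The median of the 7 was 0.14. Muc1, Muc5ac, Muc5b, Muc6 and Muc17 had no entry.

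**Figure D5:**
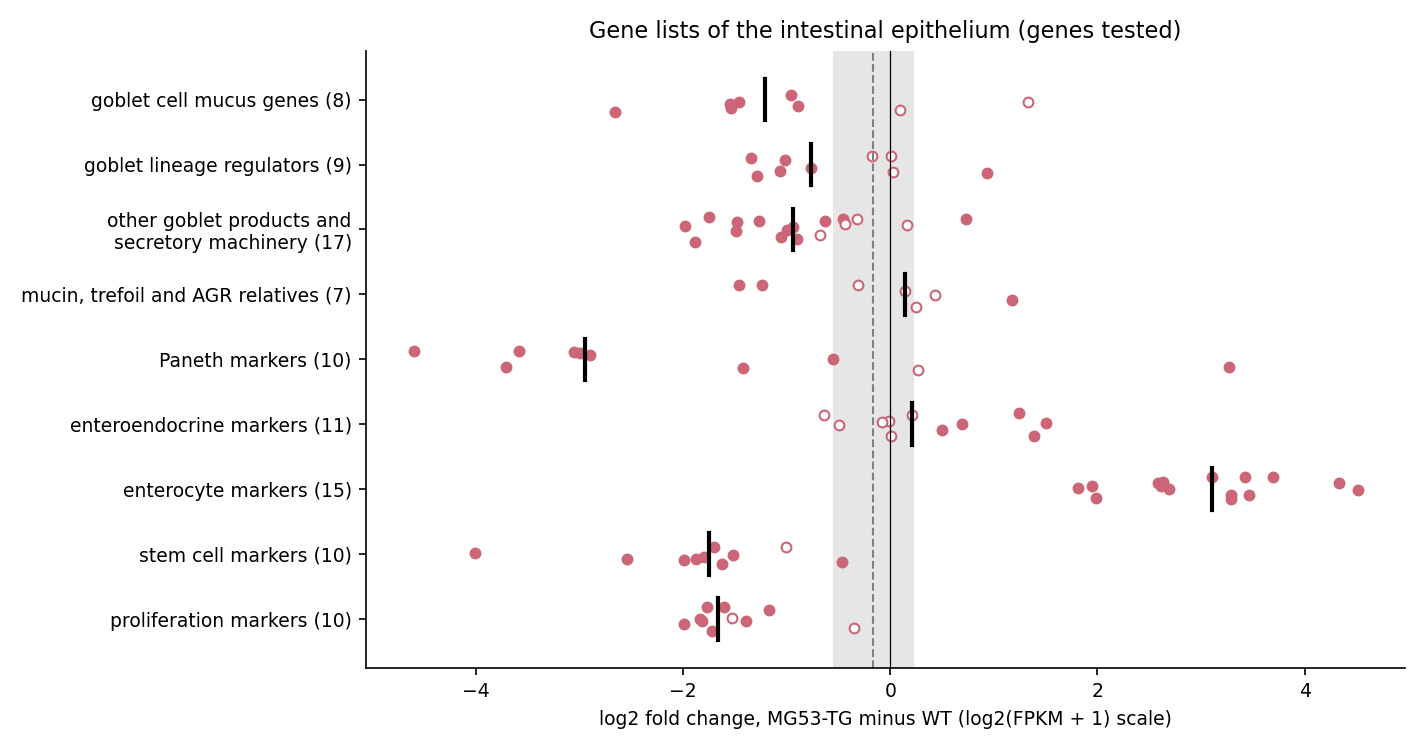
Log2 fold change (MG53-TG minus WT, log2(FPKM + 1) scale) of the tested genes of 9 lists, with the number tested in brackets. Filled points passed an adjusted p of 0.05, thick bars are list medians, the dashed line and the grey band are the median (-0.17) and the 25th to 75th percentiles (-0.54 to 0.22) of all genes. The goblet cell mucus genes have a median of -1.21, between the goblet lineage regulators (-0.76) and the stem cell markers (-1.75), and the enterocyte markers lie at 3.11.

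Markers of other cell types also differed between the genotypes, some lists in the direction of the members and others against it. Their counts stand beside 28.8% lower and 15.6% higher over all genes tested. Of the Paneth markers 8 of 10 tested were lower and 1, Pnliprp2, a pancreatic lipase relative, was higher (log2 fold change 3.27, adjusted p = 8.64e-07), with summed levels of 1400.4 to 1854 FPKM in WT and 445 to 704 FPKM in MG53-TG. All 15 enterocyte markers were higher, with summed levels of 1046 to 1239.8 FPKM in WT and 12203 to 13516 FPKM in MG53-TG. Stem cell markers were lower for 9 of 10, and for 6 without WT sample 1 or without MG53-TG sample 3. Proliferation markers were lower for 8 of 10, and for 5 without any 1 of the WT samples or without MG53-TG sample 3, whereas 5 of 11 enteroendocrine markers were higher and 0 lower. From ends alone 3 enteroendocrine markers were higher, and 1 was lower without WT sample 4. Of 10 tuft markers 6 had an entry and 1 was tested, Ltc4s. It was higher with overlapping groups (log2 fold change 0.82, limma adjusted p = 0.0372). That call was lost in 6 of the 8 fits that left out a sample, and with the replicate block (limma adjusted p = 0.0691). The immune list had 1 of 8 genes tested, Cd68, and it was lower, at 3.75 to 9.08 FPKM in WT and 0.469 to 1.28 in MG53-TG. Of the mesenchyme list 2 of 3 tested genes, Col1a2 and Col3a1, were higher, and 0 were with every absent value as 0, from starts alone or with a minimum of 2 FPKM. The list had no entry for Pdgfra, Pdgfrb and Acta2, and the summed level stayed at or below 5.17 FPKM in every sample. The part of these shifts in the fall of the mucus genes was not tested.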

How the data were processed

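RNA from 8 organoid samples was extracted with TRIzol and sequenced. Per the labels, reads were trimmed with Cutadapt 1.9.1 and mapped to mm10 with HISAT2 2.0.1, and HTSeq 0.6.1 is named for counting. The tool behind the event tables is not given in the sources used here. The authors deposited 1 FPKM value for each transcript event listed in a sample. Not every event was listed in every sample, and 17675 of 31903 start events were listed in all 8. Values go down to 1e-06, as only estimates do, and whole reads were not recoverable from them, which leaves the depth unknown.

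Events were assigned to genes by their identifier where an exon boundary of GENCODE M21 (GRCm38) matched on the same strand (89.2% of 123166 events). Where the boundary was that of another gene, it decided (6.07%). A further 2.95% matched no boundary and kept the gene of their identifier. A gene took the sum of its starts, or of its ends where that mean was higher. Where a sample lacked a gene, the value was missing if the other 3 samples of the group, absent ones as 0, reached a median of 0.5 FPKM, and was 0 if not, and 594 of 14169 genes had a missing value.

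Genotypes were compared with limma 3.58.1 (lmFit, eBayes with trend) in R 4.3.3 on log2(FPKM + 1), over the 11018 genes averaging 0.5 FPKM or more, and p-values were adjusted by Benjamini-Hochberg. Fold changes on this scale understate those of low genes. Ratios to Muc2 were tested by exact permutation. Python 3.11.15 was used for the rest, and the fits were tested on simulated data. The members and lists were chosen with earlier results of these data known, and list counts stand without a set test. Genes named were all members, per list the 3 with the largest change past the threshold, the 2 with the highest mean and those without an entry, the 5 most like Muc2, and Trim72. For lists of other cell types only counts and a few markers are given. Alternatives were median-of-ratios and quantile scaling, a pseudocount of 0.1, a minimum mean of 2 FPKM or none, a replicate block, sample weights, no trend, starts or ends only, the highest single value, assignment by coordinates or, added after seeing the data, by identifier, absent values as 0, the last Muc2 segment, also added then, and each sample left out.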

Additional observations from a re-analysis of the deposited data

Results flagged for a closer look

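A signal outside the gene values was the internal start of Creb3l1, with a mean of 1.98 FPKM over the 4 MG53-TG samples and no entry in the WT samples. No sample stood apart by Dixon's ratio in the 16 groups of member values searched, where chance alone would give 0.800. This ratio seeks a single far value in a group. It can therefore miss a pair, such as MG53-TG samples 3 and 4 for Zg16 (53.0 and 62.2 FPKM).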

How the results depend on the processing

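Across all alternatives that gave them a value, Muc2, Tff3, Fcgbp, Agr2, Spdef and Spink4 stayed lower in MG53-TG and past the threshold. Leaving out each sample in turn moved their log2 fold changes over -1.80 to -1.16 for Muc2, -1.13 to -0.74 for Tff3, -1.67 to -1.40 for Fcgbp, -2.84 to -2.44 for Agr2, -0.97 to -0.76 for Spdef and -1.71 to -1.20 for Spink4. Spdef was below the minimum of 2 FPKM, and Fcgbp had no value from ends alone or by identifier alone. Zg16 ran from 0.88 to 1.84 without 1 sample. It passed without MG53-TG sample 1, so that the count of members higher in MG53-TG, 0 in the report, ran from 0 to 1 over these fits. With the replicate block Zg16 also passed, at 1.33 (adjusted p = 0.0497), giving 1 higher member. Creb3l1 turned to -0.56 from starts alone. The labels do not say whether the sample numbers pair the genotypes. Deviations of WT and MG53-TG samples with the same number correlated at 0.0923, -0.00616, 0.0940 and -0.0618. Such weak correlations cannot settle whether the samples were paired, since a small shared effect could be hidden by the spread within groups. The replicate block left 6 members lower and gave 2871 lower and 1567 higher genes in all, and 1 lower enteroendocrine marker, and Foxa1 did not pass with it (-0.74, adjusted p = 0.172).

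For the goblet lineage regulators, 3 were lower with a minimum of 2 FPKM and 0 higher from ends alone. Of the other goblet cell products and secretory machinery, 9 to 14 were lower over the alternatives, and 11 to 12 without 1 sample. Of the relatives, 0 were higher without a filter, with the minimum of 2 FPKM, with the replicate block or from ends alone, 2 were higher from starts alone, and 1 was lower with that minimum, from starts alone or by identifier alone. Without 1 sample the higher relatives ran from 0 to 1. Ratios to Muc2 changed as follows. With the last Muc2 segment Fcgbp went to -0.18, Spink4 to -0.10 and Tff3 to 0.39, Spdef went to -6.49e-04 with a pseudocount of 0.1, and Creb3l1 had 0.99 from starts alone (exact p = 0.0857). Without 1 sample the differences ran from 0.42 to 0.67 for Tff3, -1.27 to -1.04 for Agr2, -0.24 to 0.13 for Fcgbp, 0.40 to 0.83 for Spdef and -0.04 to 0.21 for Spink4, and the exact p rose to 0.0571 for Tff3 without WT samples 2 or 4 or MG53-TG sample 1 and for Agr2 without WT samples 1 or 3, and fell to 0.0286 for Spdef without MG53-TG sample 4. The cause of these changes was not tested. Depth is unknown, so no counting error could be set beside the low values of Spdef and Creb3l1.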

Other observations

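The identifier of Fcgbp itself was attached in the tables to a start and an end on the opposite strand of the gene, listed in WT sample 4 alone at 1.54 FPKM. They were left out of the value of Fcgbp.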
